A study of Homo sapiens with 8 samples.

Results

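The genes described here are 10 members of the FERM superfamily: the ERM genes *EZR*, *RDX* and *MSN*, the scaffold genes *FRMD4A* and *FRMD4B*, the exchange factor genes *FARP1* and *FARP2*, and the phosphatase genes *PTPN3*, *PTPN4* and *PTPN13*. They were chosen by name as FERM-domain genes. No measured value is part of that rule, but results of these data were known when it was made. All 10 have a probe set that carries their symbol alone, among 33616 genes with such a probe set on the array. BCPAP cells, a line derived from a papillary thyroid carcinoma, were transfected with non-specific siRNA (si*NS*) or with siRNA against *EPB41L4A* (si*EPB41L4A*), a gene that itself encodes a FERM-domain protein. RNA was taken 72 h later and hybridized to Clariom D Human arrays, 4 per group. All samples are of this cell line and received Lipofectamine RNAiMAX, at an siRNA dose that the labels give as 40 uM. Each group stands for 1 siRNA pool in 1 cell line, so a rise or fall here is that of RNA in this setting, and protein level and phosphorylation were not measured. The titles and source names of the control samples give si*NS*, which is used here, although their treatment note speaks of an siRNA to *LRRC34*.

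The FERM domain is a membrane-binding fold that ties cytoplasmic proteins to phosphoinositides and to the tails of transmembrane receptors. ERM proteins (ezrin, radixin and moesin) open when they bind the lipid and are phosphorylated near the C terminus, and then link the plasma membrane to cortical actin in microvilli, ruffles and the trailing edge of moving cells. FRMD4 proteins join cytohesins, which activate ARF GTPases, to the PAR polarity complex at epithelial junctions. FARP proteins are guanine nucleotide exchange factors that act downstream of plexins and adhesion molecules. The FERM-domain phosphatases described here join that fold to a PDZ module and a tyrosine phosphatase domain, and act on receptors and their adaptors at the membrane.

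The values are log2 intensities from RMA, the usual background correction, normalization and summary of Affymetrix probe sets. By array their medians were 3.72 to 3.84, the highest values 19.79 to 19.92 and the means of the 612 negative control probe sets 4.05 to 4.29. The correlation of any pair of arrays was 0.968 to 0.981. A probe set was tested when at least 4 of the 8 arrays held it above the array median. Of the 66831 tested, 2.61% passed the threshold in limma (adjusted p under 0.05), with 1.23% higher and 1.38% lower after si*EPB41L4A*. Their median log2 change was -0.05. After a further quantile normalization the split of 824 higher to 923 lower turned into 1041 higher to 759 lower. *EPB41L4A* fell by 3.20 on the log2 scale, from 9.53 ± 0.26 to 6.33 ± 0.70 (SD, n = 4 each; adjusted p = 0.000491 from limma). Of 11 epithelial and thyroid markers on the array, 7 were above the negative controls on all 8 arrays, namely *KRT8*, *KRT18*, *KRT19*, *EPCAM*, *PAX8*, *NKX2-1* and *FOXE1*. Of these *EPCAM*, an epithelial adhesion gene, fell by 2.43, from 8.16 ± 0.88 to 5.72 ± 0.44 (SD, n = 4 each; adjusted p = 0.00683 from limma). *KRT8* was at -1.02 (adjusted p = 0.109), and the median of the 7 tested was -0.36, with no other call. The mean over all 11 markers was 7.67 to 7.93 by array with si*NS* and 7.32 to 7.77 with si*EPB41L4A*, and its part in the results below was not tested. *CDH1*, *TSHR*, *SLC5A5* and *TG* lay below the controls' range in both group means. Of 12 markers of other cell types, only *COL1A1* and *DCN* lay above the negative controls on all arrays. The mean of the 12 was 4.43 to 4.74 by array with si*NS* and 4.42 to 4.61 with si*EPB41L4A*.

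Across the 10 genes, none passed the test. *FARP1* failed the filter on low values and was not tested, and 0 of the other 9 had an adjusted p under 0.05, beside 2.61% of all tested probe sets. A test without moderation of the variance also called 0. At an unadjusted p under 0.05 there were 2 of 9, *PTPN4* with a positive and *PTPN13* with a negative change, where 13.9% of all tested probe sets lie. Of the 9 log2 changes 6 were positive and 3 negative, with a median of 0.30 against -0.05 over all tested probe sets. The arrays of the groups did not overlap for 1 of the 9, *PTPN4*, which compares with 8.61% of all tested probe sets.

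**Figure D1:**
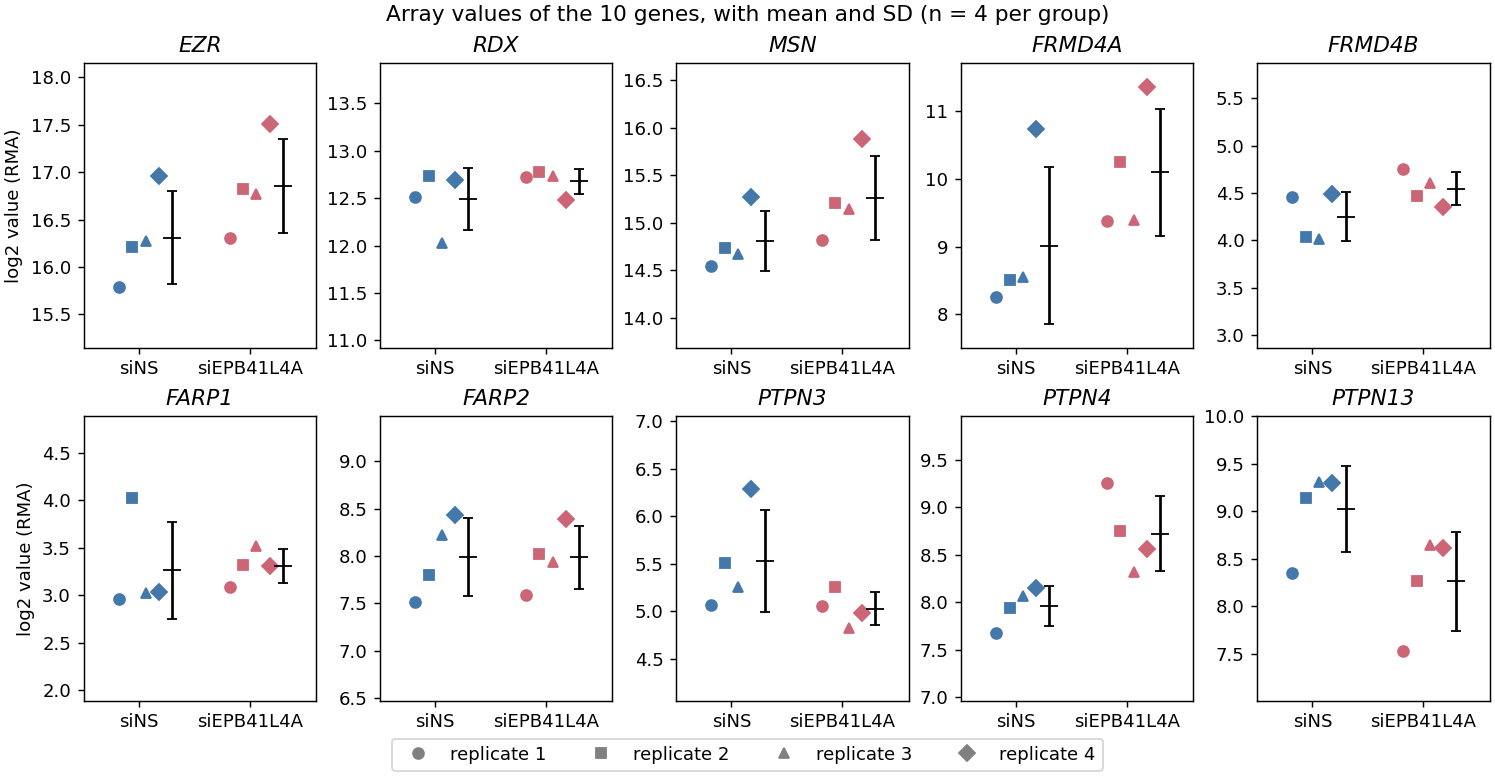
Log2 RMA value of each of the 10 genes (y axis; each panel has its own range) on the 8 arrays, with si*NS* in blue and si*EPB41L4A* in red, marker shape for the replicate number, and bars for the group mean and SD (n = 4). *PTPN4* is the gene with all si*EPB41L4A* arrays (8.32 to 9.25) above all si*NS* arrays (7.67 to 8.15), and the arrays numbered 4 are the highest of their group for *EZR*, *MSN* and *FRMD4A*.

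Among the ERM genes, *EZR* and *MSN* had higher means after si*EPB41L4A*, by about the same amount, with overlapping arrays, while *RDX* differed by less. *EZR* encodes ezrin, the ERM protein typical of epithelial microvilli. The *EZR* log2 values were 15.79, 16.21, 16.28 and 16.96 with si*NS* and 16.31, 16.82, 16.77 and 17.51 with si*EPB41L4A*, replicates 1 to 4. Only si*NS* replicate 4 lay above the lowest of the si*EPB41L4A* arrays. At every replicate number the si*EPB41L4A* array was above the si*NS* array, for *EZR* and also for *MSN* and *FRMD4A* below. The numbers were not taken as pairs, since no source ties them to a shared batch. In limma, without a block, the change was 0.54 (standard error 0.31, 95% confidence interval -0.12 to 1.21, adjusted p = 0.482 from limma). It ranged from 0.32 without si*EPB41L4A* replicate 4 to 0.76 without si*NS* replicate 4. On 7 of 8 arrays *EZR* exceeded 16, the ceiling of a 16-bit scanner on the log2 scale, and how the scale behaves at that height was not tested.

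*MSN* encodes moesin, the ERM protein best known from leukocytes and endothelium. For *MSN* the log2 values were 14.55, 14.74, 14.67 and 15.27 with si*NS* and 14.82, 15.21, 15.14 and 15.88 with si*EPB41L4A*. Here too si*NS* replicate 4 was the array that reached into the other group. The change fitted by limma was 0.46 (standard error 0.27, interval -0.12 to 1.04, adjusted p = 0.500 from limma), and 0.25 without si*EPB41L4A* replicate 4. A second *MSN* probe set had a mean of 4.18, within the range of the negative controls, and was not used.

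*RDX* encodes radixin, the ERM protein first described in liver. For *RDX* they were 12.52, 12.74, 12.03 and 12.70 with si*NS* and 12.73, 12.77, 12.73 and 12.48 with si*EPB41L4A*. The low arrays were si*NS* replicate 3 and, in the other group, replicate 4. The groups overlapped apart from these too, as si*NS* replicate 2 was above si*EPB41L4A* replicates 1 and 3. Its fitted change was 0.19 (standard error 0.22, interval -0.30 to 0.67, adjusted p = 0.800 from limma), and 0.03 without si*NS* replicate 3. Within an array, the difference between paralogs removes whatever both share. The change of *EZR* exceeded that of *RDX* by 0.36 (exact two-sided permutation test, p = 0.457) and that of *MSN* by 0.08 (exact p = 0.514), and *RDX* minus *MSN* changed by -0.27 (exact p = 0.571). Adjusted over the 6 paralog pairs compared here and below, p was 0.686 for each of the 3 pairs. Without si*EPB41L4A* replicate 4 the *EZR* and *RDX* difference was 0.0726 and that of *RDX* and *MSN* -0.00176, and over all fits without 1 array they reached 0.56 and -0.44.

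**Figure D2:**
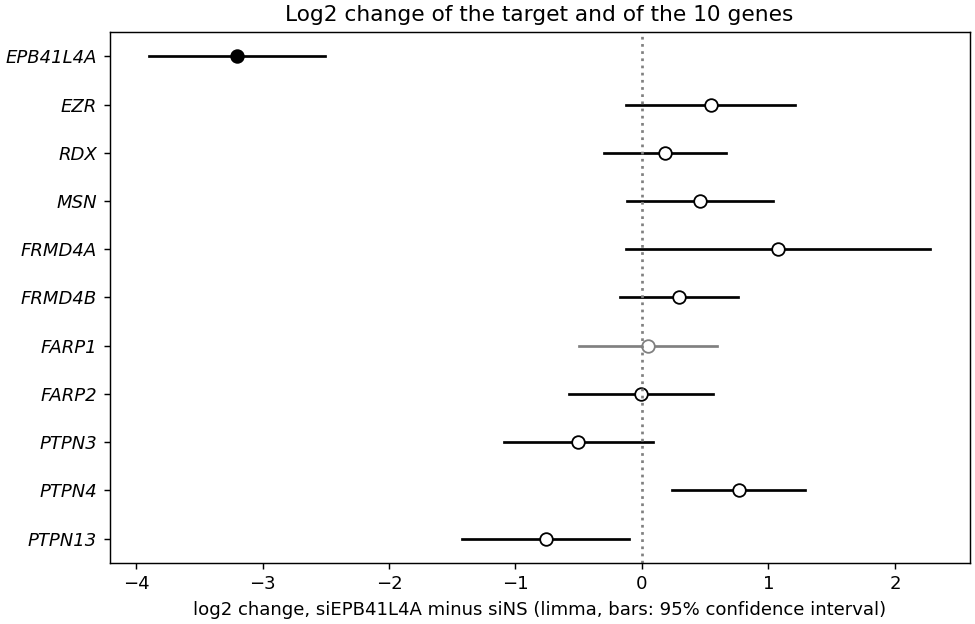
Log2 change, si*EPB41L4A* minus si*NS* (x axis), of the target and of the 10 genes, with 95% confidence intervals from limma. The filled point marks *EPB41L4A* at -3.20, the only one of these to pass the threshold, and the grey point marks *FARP1*, from the fit without a filter.

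Both FRMD4 genes had higher means after si*EPB41L4A*, and neither passed the test. *FRMD4A* encodes the scaffold that bridges cytohesin and the PAR complex. The arrays gave *FRMD4A* log2 values of 8.25, 8.51, 8.56 and 10.74 with si*NS* and 9.38, 10.24, 9.39 and 11.36 with si*EPB41L4A*. The 3 lower si*NS* arrays were below all si*EPB41L4A* arrays, and si*NS* replicate 4 was above 3 of them. The mean difference was 1.08 (standard error 0.55, interval -0.13 to 2.28, adjusted p = 0.425 from limma), with the widest interval of the 10 genes. It was 1.65 without si*NS* replicate 4 (adjusted p = 0.076 from limma), 0.66 without si*EPB41L4A* replicate 4 (adjusted p = 0.674) and 1.23 without both arrays (adjusted p = 0.070).

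*FRMD4B*, the paralog first described in mouse as a partner of a cytohesin, was near the background. Log2 values of *FRMD4B* were 4.45, 4.04, 4.01 and 4.49 with si*NS* and 4.75, 4.46, 4.61 and 4.35 with si*EPB41L4A*, and on 6 of 8 arrays they exceeded the mean of the negative controls. Limma gave a log2 change of 0.30 (interval -0.17 to 0.76, adjusted p = 0.619 from limma). The change of *FRMD4A* exceeded that of *FRMD4B* by 0.78 (exact two-sided permutation test, p = 0.343, adjusted p = 0.686).

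*FARP1* and *FARP2* were the genes with the smallest changes, although *FARP1* did not rise above the negative controls, so its change could not be judged. *FARP1*, whose product acts on Rac and supports dendrite and synapse growth in neurons, gave log2 values of 2.95, 4.03, 3.02 and 3.03 with si*NS* and 3.08, 3.32, 3.52 and 3.31 with si*EPB41L4A*. None of its 8 arrays was above the mean of the negative controls. The probe set used carries no gene identifier, and a further probe set that lists *FARP1* together with a microRNA gene was left out. Without a filter its log2 change was 0.05 (interval -0.50 to 0.59, adjusted p = 0.981 from limma).

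*FARP2*, an exchange factor that acts below plexin receptors, was measured well above the controls. The *FARP2* arrays read 7.52, 7.80, 8.22 and 8.43 with si*NS* and 7.58, 8.02, 7.94 and 8.39 with si*EPB41L4A*, and the groups covered almost the same range. In the fit the change was -0.01 (interval -0.58 to 0.56, adjusted p = 0.995 from limma), and its sign was positive after a further quantile normalization or centring on the median. The difference in response between the 2 paralogs was 0.05 (exact two-sided permutation test, p = 0.857 before and after adjustment). With *FARP1* below the controls, this value cannot show whether the 2 responded alike.

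Among the FERM phosphatases, *PTPN4* and *PTPN13* had the smallest limma p-values of the 10 genes, with changes of opposite sign. By the exact permutation test *PTPN4* came first and *PTPN3* next. *PTPN4* was higher on all 4 si*EPB41L4A* arrays than on any si*NS* array, *PTPN3* and *PTPN13* had lower means, and none of the 3 passed the test over all probe sets. *PTPN4* encodes a cytoplasmic phosphatase with 1 FERM and 1 PDZ domain. *PTPN4* log2 values were 7.67, 7.93, 8.06 and 8.15 with si*NS* and 9.25, 8.75, 8.32 and 8.56 with si*EPB41L4A*. For this gene limma gave 0.77 (standard error 0.24, interval 0.24 to 1.29, adjusted p = 0.140 from limma), and over all regroupings of the arrays the exact two-sided p was 0.0286, which 4 arrays against 4 cannot go below. Leaving out any 1 array left a change of 0.59 to 0.90 with an adjusted p of 0.125 to 0.295 from limma.

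*PTPN3* encodes the closest paralog of PTPN4 and is known to act on EGFR signalling and on the kinase p38 gamma. *PTPN3* gave log2 values of 5.07, 5.51, 5.25 and 6.29 with si*NS* and 5.05, 5.25, 4.82 and 4.98 with si*EPB41L4A*. The high array was si*NS* replicate 4, and the other 3 si*NS* arrays lay in or just above the range of the second group. The fitted difference was -0.50 (standard error 0.27, interval -1.09 to 0.09, adjusted p = 0.454 from limma; exact two-sided permutation test, p = 0.0571), and -0.25 without si*NS* replicate 4 (adjusted p = 0.710). The change of *PTPN3* was lower than that of *PTPN4* by 1.27 (exact two-sided permutation p = 0.0286, again the lowest this design can give). After adjustment over the 6 paralog pairs this p was 0.171. The difference between these genes was lower on every si*EPB41L4A* array than on any si*NS* array.

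*PTPN13* encodes a large phosphatase with several PDZ domains that binds the death receptor FAS. For *PTPN13* the values were 8.35, 9.14, 9.31 and 9.30 with si*NS* and 7.53, 8.26, 8.64 and 8.62 with si*EPB41L4A*. Apart from si*NS* replicate 1, every si*NS* array was above every si*EPB41L4A* array. As fitted, *PTPN13* changed by -0.76 (standard error 0.30, interval -1.42 to -0.10, adjusted p = 0.271 from limma; exact two-sided permutation test, p = 0.0857). A second *PTPN13* probe set, without a gene identifier, had a mean of 4.05 and was not used. With the mean of both probe sets as the value of the gene, the log2 change was -0.34 for *PTPN13* and, by the same rule, 0.24 for *MSN*.

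Array by array, *EZR*, *MSN* and *FRMD4A* went up and down together, in both groups. Over the 8 arrays Pearson's r was 0.979 for *EZR* and *MSN* (exact permutation p = 9.92e-05, adjusted p = 0.00119 over 36 pairs of the 9 tested genes) and Spearman's rho was 0.976 (exact permutation p = 0.000397, adjusted p = 0.00476). For *EZR* and *FRMD4A* r was 0.944 (exact permutation p = 2.48e-05, the smallest that 8 arrays allow, adjusted p = 0.000893) and rho was 1 (exact permutation p = 4.96e-05, adjusted p = 0.00179). For *MSN* and *FRMD4A* r was 0.946 (exact permutation p = 4.96e-05, adjusted p = 0.000893) and rho was 0.976 (exact permutation p = 0.000397, adjusted p = 0.00476). *RDX* did not share this pattern, with r of 0.159 with *EZR* and 0.201 with *MSN*. Without the 2 arrays farthest from the median of the first gene, r was 0.982, 0.895 and 0.908 for the 3 pairs. For deviations from the group means, which hold no difference between the groups, r was 0.970, 0.923 and 0.927, without a test. The exact permutations of r and rho, here and below, shuffle all 8 arrays across groups and replicate numbers. Where arrays with the same number are alike, these p-values are too small. *FARP2* shared part of the pattern. Its r of deviations was 0.941 with *EZR*, 0.853 with *MSN* and 0.829 with *FRMD4A*. Over all 8 arrays its r with *EZR* was 0.787 (exact permutation p = 0.0219, adjusted p = 0.197; rho = 0.786, adjusted p = 0.201), and 0.567 without the 2 farthest arrays. The r of deviations with *EZR*, *MSN* and *FRMD4A* was 0.773, 0.662 and 0.487 for *PTPN13*, and 0.606, 0.522 and 0.754 for *PTPN3*. Over all 8 arrays the r of these 2 genes with *EZR* was 0.125 and 0.0983.

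**Figure D3:**
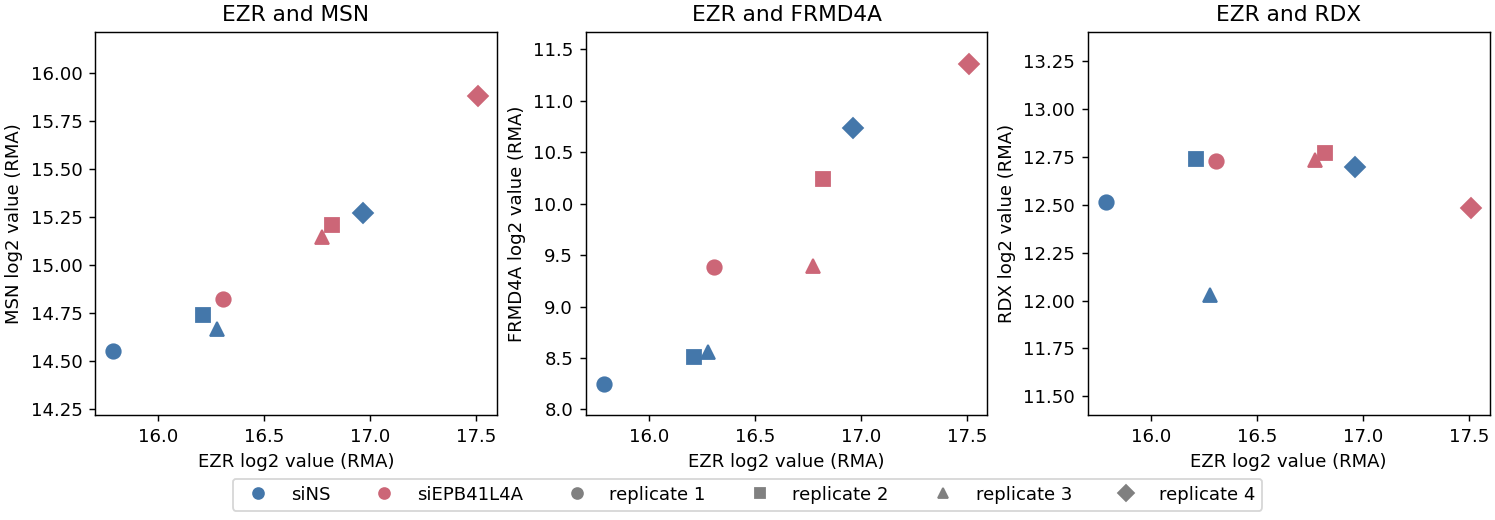
Log2 RMA value of *EZR* (x axis) against that of *MSN*, *FRMD4A* and *RDX* (y axes), 1 point per array, coloured by group with marker shape for the replicate number. *MSN* (r = 0.979) and *FRMD4A* (r = 0.944) follow *EZR* over all 8 arrays, and *RDX* (r = 0.159) does not.

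Correlations this high were uncommon but not particular to these genes. With *EZR*, 1.02% of 22464 tested genes had r of at least 0.9, with *MSN* 1.34% and with *FRMD4A* 1.11%. *MSN* ranked 5th among them for *EZR*, and *EZR* ranked 5th for *MSN*. *FRMD4A* ranked 64th for *EZR* and 78th for *MSN*, and among the genes most like *FRMD4A* itself *MSN* ranked 50th and *EZR* 53rd. The values also followed the median of the array. The relation of *EZR* to that median had r of -0.910 (exact permutation p = 0.00268, adjusted p = 0.0121 over the 9 tested genes; rho = -0.833, adjusted p = 0.0461) and -0.752 without the 2 arrays farthest from the middle. For *MSN* r was -0.823 (exact permutation p = 0.0138, adjusted p = 0.0413; rho = -0.786, adjusted p = 0.0628) and -0.630 without those arrays. The corresponding r was -0.770 for *FRMD4A* (exact permutation p = 0.0235, adjusted p = 0.0529; rho = -0.833, adjusted p = 0.0461) and -0.493 without them. *FARP2* had r of -0.907 (exact permutation p = 0.00112, adjusted p = 0.0100; rho = -0.905, adjusted p = 0.0411) and -0.879 without them. An r of -0.9 or lower with the array median was found for 0.494% of 22465 tested genes. A further quantile normalization, which gives every array the same distribution, left r at 0.968 for *EZR* and *MSN*, 0.914 for *EZR* and *FRMD4A* and 0.913 for *MSN* and *FRMD4A*. The relation to the median of the deposited array remained as well. Its r was then -0.911 for *EZR*, -0.793 for *MSN*, -0.759 for *FRMD4A* and -0.944 for *FARP2*. The step thus removed neither relation. In both groups the array median fell from replicate 1 to 4, from 3.84 to 3.74 with si*NS* and from 3.80 to 3.72 with si*EPB41L4A*. For *EZR*, *MSN* and *FRMD4A*, replicate 1 was the lowest and replicate 4 the highest array of each group. The part of the replicate number in this pattern was not tested.

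The sequences before the start sites of the genes that moved together are shown with that of *RDX*, the paralog that did not, to set their composition side by side. They come from RefSeq on GRCh38.p14, each 250 bases that end just before an annotated start (2 starts for *MSN* and for *FRMD4A*), read 5′ to 3′ in the direction of the gene. *MSN* lies on the plus strand and *EZR*, *FRMD4A* and *RDX* on the minus strand. Capitals mark matches on either strand to any of the motifs searched, and matches may overlap. These were the GC box with the letters GGGCGG, which SP family factors bind. The CCAAT box was searched by those letters. For the TATA box the letters were TATAAA. For the AP-1 site they were TGANTCA. The CArG box of serum response factor was searched by its usual consensus.
*EZR*, chr6:158818236-158818485: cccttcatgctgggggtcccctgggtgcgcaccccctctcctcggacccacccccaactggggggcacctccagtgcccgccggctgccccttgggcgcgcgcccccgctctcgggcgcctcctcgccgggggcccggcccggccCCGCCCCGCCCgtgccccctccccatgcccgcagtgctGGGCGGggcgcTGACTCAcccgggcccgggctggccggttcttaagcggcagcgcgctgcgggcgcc
*MSN*, chrX:65588127-65588376: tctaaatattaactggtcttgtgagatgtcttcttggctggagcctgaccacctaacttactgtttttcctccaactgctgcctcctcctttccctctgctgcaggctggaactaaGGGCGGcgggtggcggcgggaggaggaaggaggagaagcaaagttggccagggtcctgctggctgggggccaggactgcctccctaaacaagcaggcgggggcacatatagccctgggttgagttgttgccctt
*MSN*, chrX:65667404-65667653: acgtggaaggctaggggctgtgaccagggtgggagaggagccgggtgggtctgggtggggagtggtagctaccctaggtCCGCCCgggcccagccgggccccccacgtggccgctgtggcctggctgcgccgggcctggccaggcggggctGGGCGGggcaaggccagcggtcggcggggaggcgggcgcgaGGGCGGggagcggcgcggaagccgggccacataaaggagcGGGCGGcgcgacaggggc
*FRMD4A*, chr10:13971897-13972146: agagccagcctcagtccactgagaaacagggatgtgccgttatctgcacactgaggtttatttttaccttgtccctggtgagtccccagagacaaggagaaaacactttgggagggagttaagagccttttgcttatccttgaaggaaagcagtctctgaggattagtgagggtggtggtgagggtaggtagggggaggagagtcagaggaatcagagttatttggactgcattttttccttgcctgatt
*FRMD4A*, chr10:14008551-14008800: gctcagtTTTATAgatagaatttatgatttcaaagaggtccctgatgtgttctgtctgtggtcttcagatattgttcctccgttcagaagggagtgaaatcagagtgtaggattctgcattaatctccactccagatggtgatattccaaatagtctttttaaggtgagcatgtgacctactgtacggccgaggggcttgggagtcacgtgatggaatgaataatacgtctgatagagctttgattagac
*RDX*, chr11:110296615-110296864: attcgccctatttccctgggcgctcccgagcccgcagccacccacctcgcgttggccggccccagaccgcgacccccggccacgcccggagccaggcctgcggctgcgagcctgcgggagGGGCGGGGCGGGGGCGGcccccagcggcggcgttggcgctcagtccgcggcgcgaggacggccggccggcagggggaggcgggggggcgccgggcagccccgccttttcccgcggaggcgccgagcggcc
The window of *EZR* held 3 GC boxes and 1 AP-1 site, that of *RDX* 3 GC boxes, and the windows of *MSN* 1 and 4 GC boxes. The windows of *FRMD4A* held no GC box. In 1 of them the TATA box letters matched on the opposite strand, 243 bases before the start. Among 35116 windows of all genes, 42.6% held a GC box, 32.0% a CCAAT box, 10.7% a TATA box, 6.57% an AP-1 site and 1.16% a CArG box. G and C made up 80.8% of the window of *EZR*, 82.0% of that of *RDX*, 57.2% and 78.0% of those of *MSN*, and 48.4% and 42.0% of those of *FRMD4A*, where the median of all windows was 58.0%. The windows show which letters are present and not which factors bind.

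The genes that act with these proteins were read from the same test. The share of all probe sets that passed, set beside each list below, depends on how low a level is let in. With a filter at the 75th percentile of the array in place of the median, 2235 of 31818 passed. Among 14 genes for kinases, GTPases, a phosphatase and lipid kinases that open or close ERM proteins, 1 rose and 2 fell (21.4% of those tested, against 2.61% of all probe sets). With the 75th-percentile filter 25% of this list passed. The median log2 change was -0.02 (-0.10 to 0.11 without 1 array). *SLK*, a kinase that phosphorylates ERM proteins, rose from 13.16 ± 0.17 to 14.44 ± 0.20 (SD, n = 4 each), by 1.27 on the log2 scale (adjusted p = 0.00703 from limma). It remained past the threshold when any 1 array was left out. *RHOB*, a small GTPase gene that cells induce on stress and growth factor signals, fell by 2.73, from 10.48 ± 1.13 to 7.75 ± 0.55 (SD, n = 4 each; adjusted p = 0.0109 from limma), and passed in each of those fits too. *PIP5K1C*, a kinase that makes the lipid bound by ERM proteins, fell by 1.15 (adjusted p = 0.0307 from limma). Leaving out si*NS* replicate 1 or 4, or knockdown replicate 2, 3 or 4, raised this p past the threshold, to 0.0943 at most. With the mean of its 2 probe sets as its value, *PIP5K1C* did not pass. *STK10*, the paralog of *SLK*, was at -0.16 on the scale of log2 changes (limma, adjusted p = 0.824).

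Among the membrane proteins and scaffolds to which ERM proteins attach, 0 of 11 tested passed in limma, beside 2.61% of all probe sets. At an unadjusted p under 0.05 there were 1 higher and 2 lower, where 13.9% of all tested probe sets lie. Without moderation of the variance 0 passed as well. The median log2 change was 0.12 (-0.01 to 0.17 without 1 array). *NHERF2*, a PDZ scaffold that binds ezrin, came closest, at -1.30 (limma, adjusted p = 0.0541), and was named after its value was seen. *CD44*, the hyaluronan receptor and an ERM partner in many cells, differed by 0.58 (limma, adjusted p = 0.414).

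Of 11 genes for FRMD4 partners, 1 fell and none rose (9.09%, against 2.61% of all probe sets), with a median log2 change of -0.23. That median was 0.01 without si*NS* replicate 4, -0.47 without si*NS* replicate 3, and 0.18 over the 9 genes left by a filter at the 75th percentile. *CYTH2*, a cytohesin that activates ARF GTPases, fell by 1.40 on the log2 scale, from 12.80 ± 0.21 to 11.39 ± 0.23 (SD, n = 4 each; adjusted p = 0.00503 from limma). All 4 arrays of the knockdown were below the lowest of si*NS*, and the call held without any 1 array. *PARD3*, the polarity scaffold, differed by 0.96 on the log2 scale (limma, adjusted p = 0.105) and *ARF6*, the GTPase below the cytohesins, by 0.50 (adjusted p = 0.312).

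Of 12 genes for FARP partners 11 were tested, and 2 rose and 2 fell, 36.4% of those tested, against 2.61% of all probe sets. The median log2 change was 0.27 (0.13 to 0.40 without 1 array). The neuropilins, co-receptors that bind class 3 semaphorins together with plexins, moved in opposite directions. *NRP2* rose from 14.41 ± 0.38 to 16.18 ± 0.25 (SD, n = 4 each), by 1.77 on the log2 scale (adjusted p = 0.00296 from limma). *NRP1* fell by 1.12, from 15.47 ± 0.18 to 14.35 ± 0.27 (SD, n = 4 each; adjusted p = 0.0176 from limma). It no longer passed when the third si*NS* array or the second knockdown array was left out, where the adjusted p reached 0.0668. With the mean of its 2 probe sets as its value, *NRP1* did not pass either. *PLXNA3*, a class A plexin, fell by 1.77 (adjusted p = 0.00448 from limma). The calls of *NRP2* and *PLXNA3* held without any 1 array. *RAC1*, the GTPase on which FARP proteins act, rose by 0.92 (adjusted p = 0.0391 from limma), and of the 8 fits that leave out 1 array only that without si*NS* replicate 3 kept the call, with p at 0.106 at most in the others.

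Of 12 tested genes for partners and substrates of the FERM phosphatases 1 rose and none fell (8.33%, against 2.61% of all probe sets). The median log2 change was -0.26 (-0.48 to -0.23 without 1 array). At an unadjusted p under 0.05 there were 1 higher and 5 lower, 6 of 12, where 13.9% of all tested probe sets lie. *EGFR*, the growth factor receptor linked to *PTPN3*, rose from 10.43 ± 0.66 to 12.06 ± 0.41 (SD, n = 4 each; adjusted p = 0.0221 from limma). Omission of control replicate 2, or of knockdown replicate 1, 2 or 3, ended the call, with p at 0.0801 at most. *MAPK12*, which encodes p38 gamma, was at -0.95 on the scale of log2 changes (limma, adjusted p = 0.0555), and *FAS*, the receptor bound by PTPN13, at 0.40 (adjusted p = 0.815). Neither passed the test, and both were named for their role beside the phosphatases with their values known.

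**Figure D4:**
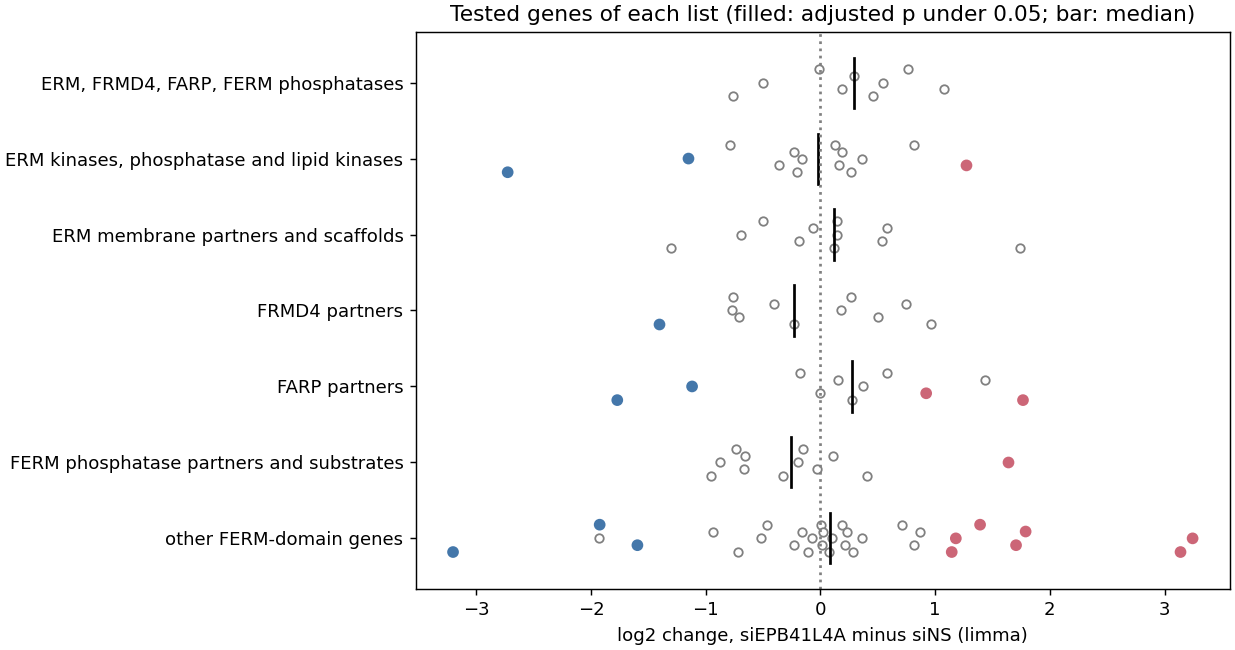
Log2 change, si*EPB41L4A* minus si*NS* (x axis, limma), of the tested genes of each list, with filled points for an adjusted p under 0.05 (red higher, blue lower) and a bar for the median of the list. The 9 tested genes of the ERM, FRMD4, FARP and FERM phosphatase group have open points between -0.76 and 1.08, whereas other FERM-domain genes reach from -1.93 to 3.24 and the siRNA target *EPB41L4A* lies at -3.20.

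Other FERM-domain genes were counted for comparison. Of 43 listed, 40 were on the array and 32 were tested. Of these 7 rose and 3 fell (31.2%, against 2.61% of all probe sets), the siRNA target *EPB41L4A* among the latter. With the 75th-percentile filter 42.3% of this list passed, where 2235 of 31818 probe sets did. For the genes described here 0 of 9 passed, which is near the 2.61% of all probe sets. Whether the list and the genes described here differ in their share was not tested. *EPB41L3*, a protein 4.1 gene, rose by 3.24 (adjusted p = 0.00960 from limma) and *PLEKHH1*, a gene for a protein with pleckstrin homology and FERM domains, by 3.14 (adjusted p = 2.45e-05). *PTK2B*, a kinase of the focal adhesion kinase family, fell by 1.92 (adjusted p = 0.0246 from limma). *PTK2B* failed the threshold when control replicate 1 or 2, or knockdown replicate 1, 2 or 3, was omitted (highest adjusted p = 0.0676), while those of *EPB41L3* and *PLEKHH1* held without any 1 array. *PTPN14* and *PTPN21*, the other phosphatases with a FERM domain, were named after their values were seen. *PTPN14* rose by 1.18 (adjusted p = 0.0245 from limma), and failed the threshold when control replicate 1, 3 or 4, or knockdown replicate 2 or 4, was omitted (highest adjusted p = 0.0816). *PTPN21* differed by 0.71 (limma, adjusted p = 0.150), close to the 0.77 of *PTPN4*, and its groups did not overlap either.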

How the data were processed

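Signal intensities were processed by the authors with RMA in Affymetrix Expression Console, and 1 log2 value per probe set and array was deposited. The version of that software is not given in the sources used here. The 138745 deposited rows hold 135750 probe sets and 2995 control rows, and the latter were not tested. Platform annotation pairs 36176 probe sets with 1 symbol and 1119 with several, and the latter named no gene. A gene is its single-symbol probe set with the highest mean. No array was identical to another.

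For the comparison of groups, lmFit and eBayes of limma 3.58.1 (R 4.3.3) were run without a block on the 66831 probe sets that passed the filter (higher than the array median on 4 or more of 8 arrays), with Benjamini-Hochberg adjustment over all of them. Exact permutation tests ran in Python 3.11.15 with SciPy 1.17.1. The limma step was tested on simulated data. The members and lists were chosen with earlier results of these data known. Named partners are, per list, the called genes with up to 2 largest rises and 2 largest falls. Others are said to be chosen later or are *STK10*, *CD44*, *PARD3*, *ARF6*, *MAPK12* and *FAS*, picked for their role with their values known. Alternatives were other filters, scalings and variance models, array weights, averaging the probe sets of a gene, a replicate block and leaving out arrays. The relation to array medians was added after the values were seen. The number of arrays limits the precision.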

Additional observations from a re-analysis of the deposited data

Results flagged for a closer look

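Among the 20 groups of 4 arrays of the 10 genes, 4 held an array far from the other 3, where chance gives about 1 in 20. *FRMD4A* was at 10.74 on si*NS* replicate 4, against 8.25 to 8.56 on the others. *PTPN13* was at 8.35 on si*NS* replicate 1, against 9.14 to 9.31. *RDX* was at 12.48 on si*EPB41L4A* replicate 4, against 12.73 to 12.77. *FARP1* was at 4.03 on si*NS* replicate 2, against 2.95 to 3.03, all below the mean of the negative controls.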

How the results depend on the processing

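Of the 161 log2 changes of the 9 tested genes under the alternatives, 152 kept their direction and their side of the threshold, 1 passed it and 8 changed sign. All 8 were of *FARP2*: 0.0683 after quantile normalization, 0.0127 after centring, 0.00107 with array weights, 0.00237 without both arrays numbered 4 (added after the values were seen), and -0.17 to 0.14 without 1 array. *FRMD4B* failed the 75th-percentile filter. The difference of *FARP1* and *FARP2* in response became -0.00785 after quantile normalization and -0.0312 without both arrays numbered 4, and was -0.167 to 0.375 without 1 array. That of *EZR* and *MSN* was -0.00364 to 0.149.

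Over all probe sets, 1747 calls became 312 with Student's t-test, 1126 without both arrays numbered 4, and 797 to 1628 without 1 array. Fewest were left without si*EPB41L4A* replicate 2 (797), and the count fell by over 1.5 times also without si*EPB41L4A* replicate 3 (997) or si*NS* replicate 1 (1026), 2 (996) or 3 (1115). Under the t-test the lists held 1 call among ERM regulators, 0 among FARP partners, 0 among phosphatase partners and 4 among other FERM-domain genes. Among ERM membrane partners there was 1 call (lower) with the 75th-percentile filter, quantile normalization or array weights, and 0 to 1 without 1 array. Phosphatase partners had 2 calls with the 75th-percentile filter or array weights and 0 to 2 without 1 array, and FARP partners 2 to 3.

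Replicate numbers are shared by the groups, but no source ties a number to a shared batch, so the numbers were not taken as pairing. Number by number, the si*EPB41L4A* array was always the higher for *EZR*, *MSN*, *FRMD4A* and *PTPN4*. It was always the lower for *PTPN3* and *PTPN13*, and the direction was mixed for *RDX*, *FRMD4B*, *FARP1* and *FARP2*. After removal of the group means, arrays with the same number had correlations of 0.228, 0.0746, 0.201 and 0.385. Arrays of the 2 groups with unlike numbers had correlations of -0.227 to 0.0304. All 8 of 8 arrays correlated best with their own number, which is a hint from the data only. With the number as a replicate block, 3176 of 66831 probe sets passed, against 1747 without it. Of the 9 genes 1 passed, *FRMD4A* (adjusted p = 0.032 from limma). At an unadjusted p under 0.05 that fit had 4 of the 9 higher and 1 lower, against 1 and 1 without the block. The share of all probe sets at that p was not counted for the block. These counts therefore cannot be read as particular to the 9 genes. Calls were then 2 among ERM membrane partners, 2 among FRMD4 partners and 3 among phosphatase partners. For *PTPN13* the adjusted p was 0.058. The paralog difference of *PTPN3* and *PTPN4* had an exact p of 0.125 within numbers, the smallest possible there.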
